A study of Mus musculus with 29 samples.

Results

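Plasminogen activation system genes comprised 8 genes, taken as the rows of the count table whose Ensembl ID maps to the mouse symbols Plau, Plaur, Plat, Serpine2, Serpinf1, Serpinb2, Anxa2 and S100a10. In that order they are ENSMUSG00000021822.4, ENSMUSG00000046223.11, ENSMUSG00000031538.7, ENSMUSG00000026249.11, ENSMUSG00000000753.16, ENSMUSG00000062345.11, ENSMUSG00000032231.15 and ENSMUSG00000041959.15, on chromosomes 14, 7, 8, 1, 11, 1, 9 and 3. Each symbol matched 1 of the 56953 rows, and all 8 passed the filter on low counts that left 8853 genes for testing. RNA was measured in 29 Smart-seq3 libraries (a full-length protocol, used here on bulk RNA) of crude stromal vascular fraction (SVF), the non-adipocyte cells released by digesting fat. The cells came from C57BL6/J wild-type mice, adult per the study, and from either inguinal (iWAT, subcutaneous) or perigonadal (pgWAT, visceral) white adipose tissue. All 4 groups were grown in PM1 medium with 1 nM basic FGF for 4 days, and no group went without the growth factor. By label 10 libraries were iWAT male and 9 iWAT female, while pgWAT gave 4 male and 6 female ones. The study's methods give other sizes for its 29 samples, with 9 in each iWAT group and more male than female pgWAT ones. The study describes these wells as technical replicates from a few independent experiments, fewer for pgWAT than for iWAT. The labels do not tie a well to an experiment or animal, so n counts wells and p-values measure the spread between wells.

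The plasminogen activation system turns plasminogen, a zymogen made mainly by the liver, into plasmin, a protease that cuts fibrin and extracellular matrix. Urokinase (Plau) and tissue plasminogen activator (Plat) make the cut, cell surface proteins such as the urokinase receptor (Plaur) and the annexin A2 and S100A10 complex bring activator and substrate together, and serpins oppose it. In adipose tissue the system is known for matrix remodelling.

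Total counts were 315316 to 1102234 per library, so that 3 counts, the limit that a count of 0 allows, corresponded to 2.72 to 9.51 CPM (counts scaled to a common library total). This limit was taken on unscaled totals, while the CPM of genes used totals multiplied by a TMM factor per library (0.9485 to 1.056). It covers counting error only, since reads without molecular identifiers were counted too. Fibroblast markers were present in every library (Col1a1 at 502 CPM or more, Pdgfra at 228 CPM or more), while the summed adipocyte markers (Adipoq, Plin1 and Lep) reached at most 39.1 CPM. The iWAT libraries matched their sex labels, with 16 to 97 Xist counts and 0 Y-linked counts in females and 0 to 2 Xist counts and 8 to 64 Y-linked counts in males. In pgWAT, 5 of 10 libraries did not. The libraries labelled pgWAT male replicates 2 and 4 held 24 and 60 Xist counts and 1 and 0 Y-linked counts, those labelled pgWAT female replicates 2 and 3 held 0 Xist counts and 23 and 26 Y-linked counts, and pgWAT female replicate 1 held both (7 and 10). The 5 libraries were kept in their labelled groups, and results are also given without them. By label they are all the pgWAT libraries of well columns 9 and 10, and the other pgWAT libraries lie in columns 7 and 8. Within pgWAT, going against the sex label and lying in well columns 9 and 10 therefore cannot be told apart. Of the other pgWAT libraries, male replicate 3 lay in column 7. Male replicate 1 lay in column 8 with female replicates 4, 5 and 6. The fits without the 5 libraries held no term for the well column. The study describes low Y-linked counts in its female pgWAT cultures as a weak contamination.

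Sequence upstream of the start site is shown for the members whose depot difference passed the test and that RefSeq's promoter table holds (Anxa2, Serpine2 and Serpinb2), and for Plaur, whose SD among pgWAT libraries was largest relative to its mean. Each run is the 250 bases before the start (build GRCm38.p6), 5′ to 3′ on the strand of the gene. Capitals mark matches, on both strands, to 3 motifs. The AP-1 motif was TGANTCA. The TATA box searched for was TATAAA. For the GC box the letters were GGGCGG.
Anxa2, chr9:69453433-69453682, plus strand: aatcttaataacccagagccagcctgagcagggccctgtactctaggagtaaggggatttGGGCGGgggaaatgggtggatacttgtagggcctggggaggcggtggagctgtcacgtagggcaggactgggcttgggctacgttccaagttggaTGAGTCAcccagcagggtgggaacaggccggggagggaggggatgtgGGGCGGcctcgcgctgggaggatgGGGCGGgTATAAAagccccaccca
Serpine2, chr1:79858666-79858915, minus strand: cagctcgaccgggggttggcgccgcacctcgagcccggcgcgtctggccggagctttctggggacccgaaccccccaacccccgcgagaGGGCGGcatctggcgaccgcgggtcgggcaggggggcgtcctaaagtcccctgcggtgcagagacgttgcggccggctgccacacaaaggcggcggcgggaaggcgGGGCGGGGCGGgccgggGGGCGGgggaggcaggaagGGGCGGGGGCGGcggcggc
Serpinb2, chr1:107511173-107511422, plus strand: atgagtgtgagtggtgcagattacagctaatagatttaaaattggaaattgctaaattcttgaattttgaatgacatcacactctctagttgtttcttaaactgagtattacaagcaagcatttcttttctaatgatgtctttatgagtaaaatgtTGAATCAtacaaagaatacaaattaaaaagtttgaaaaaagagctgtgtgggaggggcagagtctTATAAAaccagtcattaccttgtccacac
Plaur, chr7:24462233-24462482, plus strand: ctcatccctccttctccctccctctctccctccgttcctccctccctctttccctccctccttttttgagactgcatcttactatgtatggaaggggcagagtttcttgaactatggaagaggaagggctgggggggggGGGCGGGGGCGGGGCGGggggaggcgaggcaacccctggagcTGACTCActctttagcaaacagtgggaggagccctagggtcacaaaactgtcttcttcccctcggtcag
The AP-1 letters began 95 bases before the start of Anxa2, 94 before that of Serpinb2 and 69 before that of Plaur. RefSeq's table holds another start for Serpinb2, farther downstream (window chr1:107511260-107511509), from which the same AP-1 letters began 181 bases and the TATA box 116 bases upstream. Of all 32851 promoter windows of this length 6.75% held them, while 12.4% held the TATA box and 32.7% the GC box. Serpine2 had 6 GC boxes, some of them overlapping, with neither of the other motifs, and Serpinf1 had none of the motifs. A match describes letters and is not evidence of binding.

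The members differed widely in level. Per kilobase of the principal transcript, Anxa2 was the most abundant at 4419 ± 709 CPM per kb in iWAT (SD, n = 19) and 2116 ± 587 in pgWAT (SD, n = 10). Serpinf1 followed with 702 ± 68.9 in iWAT and 694 ± 141 in pgWAT, then S100a10 with 499 ± 98.7 and 353 ± 89.2. Next in iWAT came Plat (183 ± 49.3) and Serpine2 (140 ± 54.6), whose ranges overlapped. In pgWAT that order was turned, with Serpine2 at 341 ± 103 and Plat at 125 ± 25.1 CPM per kb, and Serpine2 differed from S100a10 by less than either SD. Plaur (44.0 ± 14.0 in iWAT and 47.7 ± 35.9 in pgWAT) and Plau (23.03 ± 8.08 and 28.5 ± 11.9) were low and overlapped, and Serpinb2 was lowest at 7.497 ± 5.72 and 3.51 ± 2.06. Serpinb2 rested on 211 counts over all 29 libraries, against 95541 for Anxa2.

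**Figure D1:**
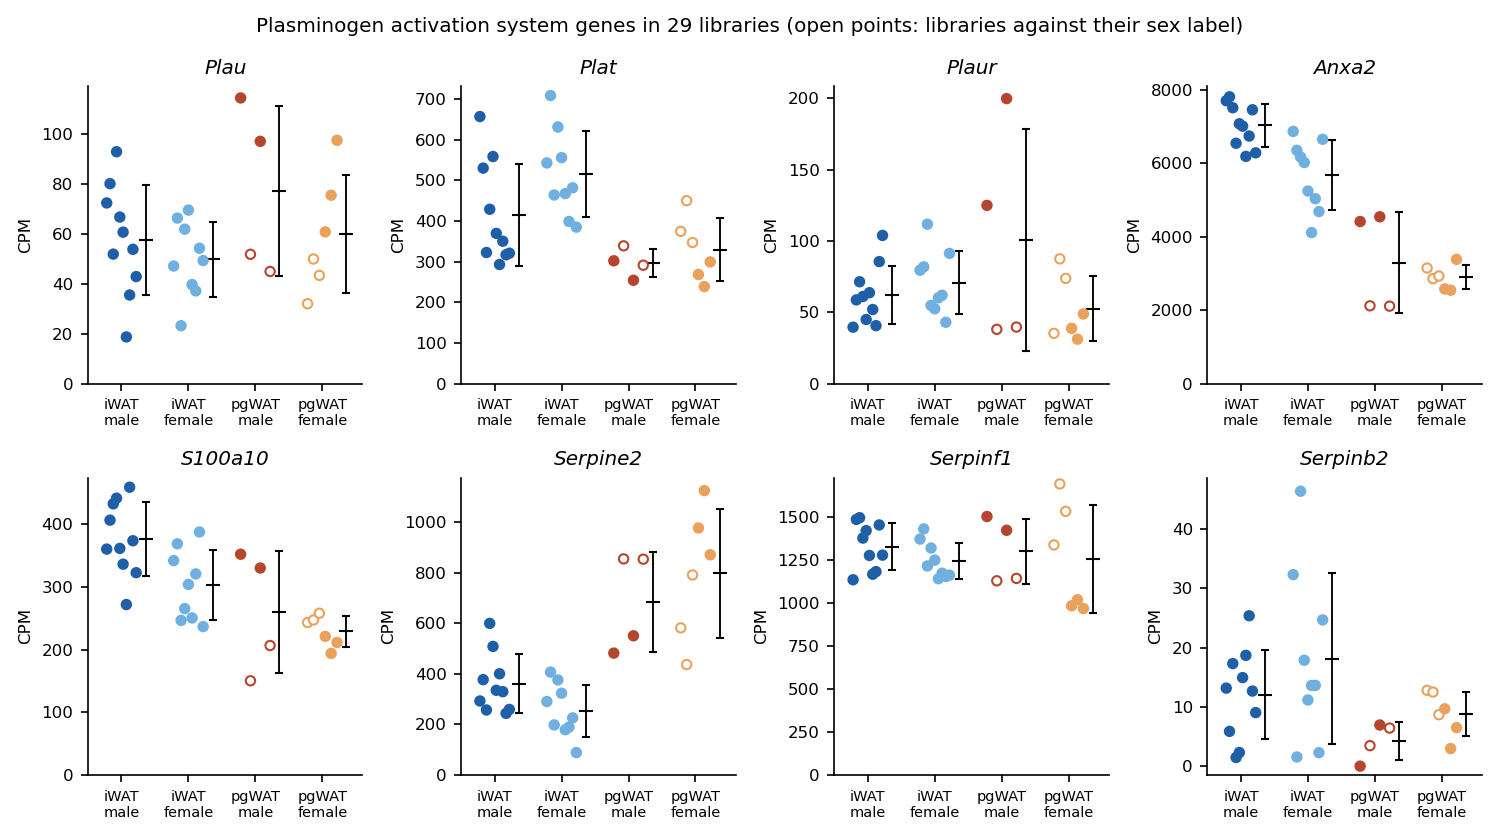
CPM of each member (vertical axis, linear) in every library, by depot and labelled sex (horizontal axis); points are libraries, bars are mean ± SD, and open points are the 5 pgWAT libraries whose sex-linked counts went against their label. All 10 pgWAT libraries lay below the iWAT mean for Anxa2, Plat and Serpinb2 and above it for Serpine2.

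Whether the system differed between fat depots was tested as pgWAT against iWAT with both labelled sexes weighted equally. In pgWAT Serpine2 rose 2.44-fold, Anxa2 fell 2.04-fold, Plat fell 1.48-fold, S100a10 fell 1.38-fold and Serpinb2 fell 2.22-fold. Thus 5 of 8 members passed a false discovery rate (FDR) of 0.05, where 38.1% of all tested genes did. By direction, 1 member was higher in pgWAT (20.1% of all genes) and 4 were lower (17.9% of all genes). The median log2 fold change was -0.24 over the members and 0.01 over all genes. No member separated the depots without overlap, as 2.13% of all genes did. In bulk RNA, fewer cells of a type and less RNA per cell cannot be told apart.

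Of the cell surface members, Anxa2 codes for a membrane-binding protein that, with S100A10, is a receptor for tissue plasminogen activator and plasminogen. It was measured at 6188, 7044 and 7812 CPM (lowest, median and highest) in iWAT male and at 4113, 6022 and 6869 CPM in iWAT female libraries. The pgWAT male libraries held 4414, 2117, 4543 and 2108 CPM in the order of their replicate numbers, and the pgWAT female libraries held 2541, 2893 and 3383 CPM. All pgWAT libraries lay below the iWAT mean and 8 of 10 lay below the lowest iWAT library; the exceptions were pgWAT male replicates 1 and 3. The log2 fold change was -1.03 (SE 0.11, FDR 4.2e-09), with -1.09 (FDR 9.9e-06) in males and -0.96 (FDR 4.4e-06) in females. Without the 5 libraries it was -0.84 (FDR 2.3e-07) in both sexes together and -0.67 (FDR 0.0036) in males. An antisense gene overlapping Anxa2, Gm16144, shares 1.86% of the 31-base words of Anxa2 and held 70 counts in all, and counting is not stated to use strand.

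S100a10 codes for the partner of annexin A2, whose carboxy-terminal lysine binds plasminogen. Its CPM was 272, 368 and 459 (lowest, median and highest) in iWAT male, 237, 304 and 388 in iWAT female and 194, 232 and 258 in pgWAT female libraries, and 352, 150, 330 and 207 in the 4 pgWAT male libraries. Only 1 of 10 pgWAT libraries exceeded the iWAT mean, and 5 lay below every iWAT library. The log2 fold change was -0.47 (SE 0.12, FDR 0.0017), called in males (-0.53, FDR 0.027) and just missing the threshold in females (-0.40, FDR 0.052). With these 5 left out the male value was -0.16 (FDR 0.67), the female value was -0.54 (FDR 0.023) and the value over both sexes was -0.35 (FDR 0.04). The male call was also lost without pgWAT male replicate 2 (-0.35, FDR 0.18) or 4 (-0.46, FDR 0.11), and the female value was called in 11 of 29 fits that left out 1 library (FDR 0.027 to 0.114 over the 29), those without any of the pgWAT male libraries, iWAT male replicates 4, 7 and 8 or iWAT female replicates 3, 4, 6 and 9.

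The subunits of this complex did not shift by the same amount. Libraries held 18.8 Anxa2 counts per S100a10 count in iWAT and 12.6 in pgWAT (geometric means of counts, not per length). The log2 ratio of S100a10 to Anxa2 was -4.23 ± 0.29 in iWAT (SD, n = 19) and -3.65 ± 0.18 in pgWAT (SD, n = 10), a difference of 0.58 (SE 0.089; two-sided permutation test, p = 2e-05, the smallest that 100000 resamples can give). The ranges overlapped, at -4.80 to -3.59 in iWAT and -3.99 to -3.35 in pgWAT. Without the 5 libraries the difference was 0.50 (exact permutation test, p = 0.00151).

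The receptor for urokinase, Plaur, was not called between the depots, unlike these partners. Its CPM was 39.5, 59.9 and 104 (lowest, median and highest) in iWAT male, 43.0, 62.0 and 112 in iWAT female and 31.1, 43.8 and 87.5 in pgWAT female libraries. The pgWAT male libraries held 125, 38.0, 200 and 39.6 CPM. Replicates 1 and 3 lay above every other library, and replicates 2 and 4, which carried Xist, lay below or next to the lowest iWAT library. The depot difference was 0.15 on the log2 scale (SE 0.22, FDR 0.63; approximate 95% interval -0.29 to 0.59), with 0.71 (FDR 0.10) in males and -0.41 (FDR 0.35) in females. With the 5 libraries left out, Plaur was higher in pgWAT in males (1.39, FDR 0.00032) and lower in females (-0.84, FDR 0.042). The male value was also called without pgWAT male replicate 2 alone or replicate 4 alone (0.97 and FDR 0.031 in both fits), while without replicate 3 alone it was 0.10 (FDR 0.87).

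The 2 pgWAT male libraries with the most Plaur also had the highest macrophage marker sums of all libraries. The 7 markers (Adgre1, Cd68, Csf1r, Lyz2, Ptprc, Cd14 and Mrc1) summed to 7220 and 7786 CPM in pgWAT male replicates 1 and 3, against 1124 and 1070 in replicates 2 and 4. Lyz2 weighed most in the sums, with means of 1213 CPM in iWAT and 2432 CPM in pgWAT. The next marker, Cd68, had means of 112 and 230 CPM. The 7 markers are thus mainly a measure of Lyz2. They summed to 714 to 813 CPM in the 3 pgWAT female libraries that matched their label and to 2164, 3246 and 3085 in the others. In iWAT the sums were 1424 to 2430 CPM in males and 623 to 1105 in females. Mean Plaur there was not higher in males (62.1 CPM, against 70.7 CPM in females). No marker was at 0 throughout a group, and 3 of 6 tested markers were called higher in pgWAT. Anxa2 and S100a10 were also highest within pgWAT in the libraries with the most macrophage marker RNA, while Serpine2 was among the lowest there. The part of macrophage RNA in these values was not tested.

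**Figure D2:**
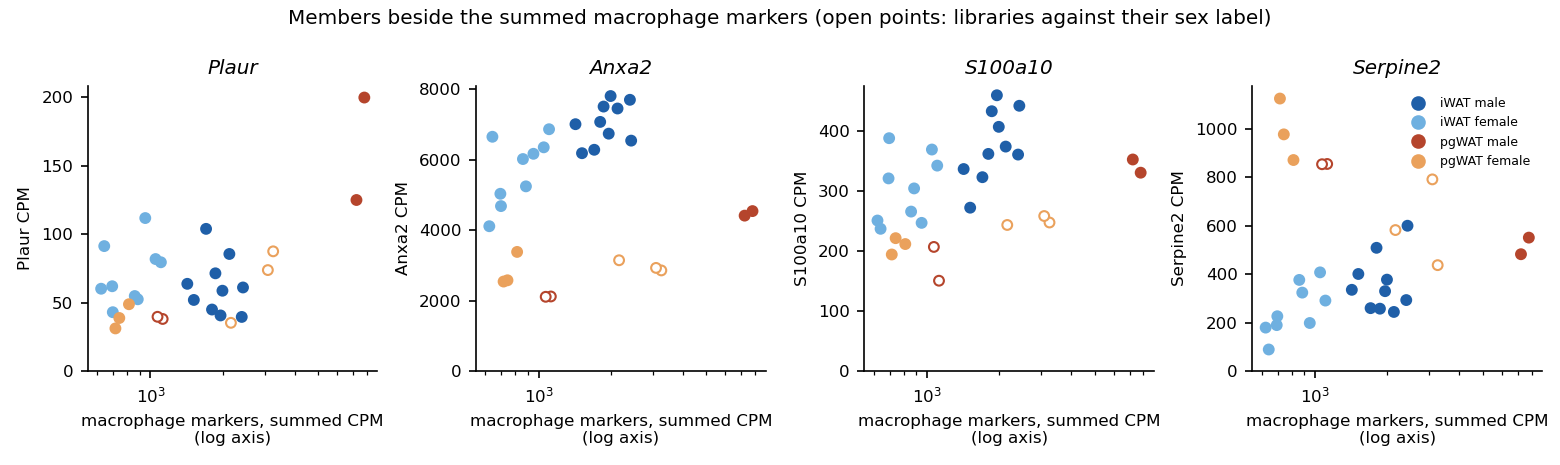
CPM of Plaur, Anxa2, S100a10 and Serpine2 (vertical axes, linear) against the summed CPM of 7 macrophage markers (horizontal axes, log scale); each point is 1 of 29 libraries, coloured by group, and open points went against their sex label. The 2 pgWAT male libraries at 7220 and 7786 CPM of markers held the highest Plaur (125 and 200 CPM), and in pgWAT also the highest Anxa2.

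Among the activators, Plat codes for the fibrin-dependent tissue-type enzyme. It was measured at 293, 360 and 657 CPM (lowest, median and highest) in iWAT male and 385, 482 and 709 CPM in iWAT female libraries. In pgWAT it was 302, 339, 254 and 291 CPM in the male libraries and 239, 323 and 450 CPM in the female libraries. Every pgWAT library was below the iWAT mean, 4 were below the lowest iWAT library, and the depots overlapped between 293 and 450 CPM. The log2 fold change was -0.57 (SE 0.13, FDR 0.00082), called in females (-0.65, FDR 0.0054) and not in males (-0.49, FDR 0.074); it was -0.78 (FDR 0.00099) without the 5 libraries. The male value was called only without iWAT male replicate 7 (-0.54, FDR 0.048) among the 29 fits that left out 1 library.

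Plau codes for urokinase, the receptor-bound activator of pericellular proteolysis. Its CPM was 18.7, 57.3 and 93.0 (lowest, median and highest) in iWAT male, 23.2, 49.4 and 69.6 in iWAT female and 32.0, 55.4 and 97.6 in pgWAT female libraries, and 115, 51.9, 97.2 and 45.0 in the 4 pgWAT male libraries. The groups overlapped, and 3 of 10 pgWAT libraries lay above every iWAT library. The depot difference was not called (0.32 on the log2 scale, SE 0.19, FDR 0.21; approximate 95% interval -0.07 to 0.70). It was called without the 5 libraries (0.69, FDR 0.015) and with the well column as a factor (0.58, FDR 0.02).

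Set against each other, the activators shifted towards urokinase in pgWAT. The log2 ratio of Plat to Plau counts was 3.13 ± 0.50 in iWAT (SD, n = 19) and 2.31 ± 0.78 in pgWAT (SD, n = 10), that is 8.73 and 4.96 Plat counts per Plau count. The difference was -0.81 (SE 0.27; two-sided permutation test, p = 0.00266). Without the 5 libraries, which held the highest ratios of pgWAT, it was -1.495 (exact permutation test, p = 4.71e-05). That p is the smallest that the exact test of 5 against 19 libraries can give. The 5 libraries left out lay within the iWAT range, and the other 5 lay at 1.38 to 2.13, below the lowest iWAT value of 2.20.

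**Figure D3:**
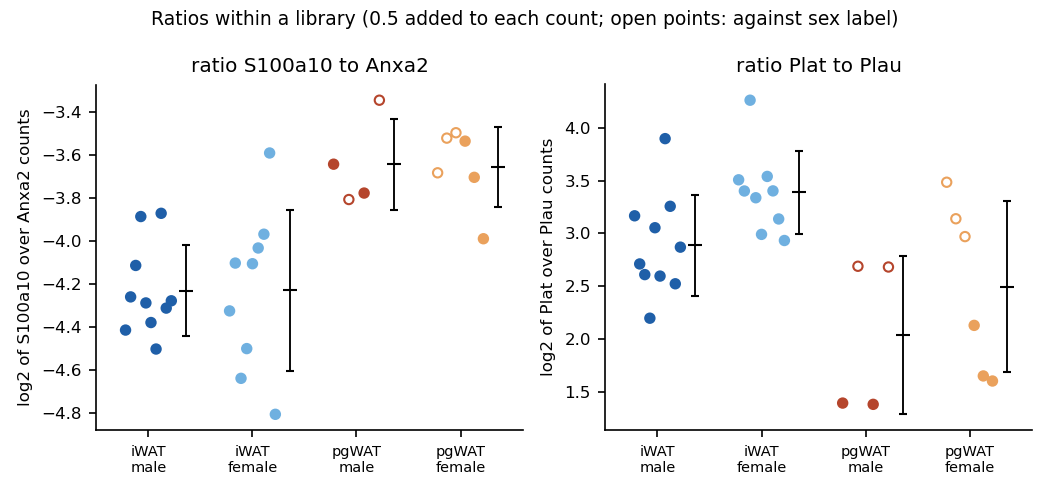
Log2 ratio of S100a10 to Anxa2 counts and of Plat to Plau counts (vertical axes; 0.5 was added to each count) in each library, by group (horizontal axis); bars are mean ± SD and open points went against their sex label. The depots overlap in both ratios, and the 5 filled pgWAT points of Plat to Plau lie at 1.38 to 2.13.

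Of the serpins, Serpine2 (protease nexin 1) inhibits thrombin, urokinase and tissue plasminogen activator. It was measured at 244, 333 and 600 CPM (lowest, median and highest) in iWAT male and 88.8, 226 and 408 CPM in iWAT female libraries. The pgWAT male libraries held 483, 856, 551 and 855 CPM, and the pgWAT female libraries 437, 832 and 1126 CPM. All 10 pgWAT libraries were above the iWAT mean and 6 were above every iWAT library. The log2 fold change was 1.29 (SE 0.18, FDR 4.1e-07), with 0.92 (FDR 0.010) in males and 1.65 (FDR 2.4e-06) in females. It was 1.22 (FDR 2.5e-05) without the 5 libraries over both sexes, where the male value was 0.49 (FDR 0.39) and the female value 1.95 (FDR 1e-06). The male call was also lost without pgWAT male replicate 2 (0.80, FDR 0.057) or 4 (0.78, FDR 0.071).

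Serpinf1 codes for pigment epithelium-derived factor, a secreted serpin that does not inhibit proteases. It was close in the depots, with 1287 ± 126 CPM in iWAT (SD, n = 19) and 1271 ± 258 CPM in pgWAT (SD, n = 10), and its log2 fold change was -0.01 (SE 0.088, FDR 0.96; approximate 95% interval -0.18 to 0.16). Within pgWAT female it ranged from 966 to 1689 CPM, with 966 to 1017 in the 3 libraries that matched their label and 1335 to 1689 in the others. When the 5 libraries were left out it was lower in pgWAT in females (-0.33, FDR 0.042).

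Serpinb2 codes for plasminogen activator inhibitor 2, a largely intracellular serpin known from macrophages and keratinocytes. Between 1 and 24 counts were seen per iWAT library and between 0 and 7 per pgWAT library, so that single values lie near the limit of detection. The means were 15.0 ± 11.4 CPM in iWAT (SD, n = 19) and 6.995 ± 4.11 CPM in pgWAT (SD, n = 10). All 10 pgWAT libraries were below the iWAT mean, and the ranges overlapped from 1.45 CPM to 12.8 CPM. The log2 fold change was -1.15 (SE 0.45, FDR 0.04), called in neither sex alone (-1.31, FDR 0.19 in males and -0.995, FDR 0.20 in females). The call was lost with limma voom (-0.78, FDR 0.36), without the 5 libraries (-1.48, FDR 0.091) and in 12 of 29 fits that left out 1 library, namely those without iWAT male replicates 3, 6, 7 and 8, iWAT female replicates 1, 3 and 9, pgWAT male replicates 1 and 2 or pgWAT female replicates 3, 5 and 6, with FDR up to 0.083. The overlapping gene Serpinb10 held 1 count. Of its transcript types, the processed transcripts shared the most 31-base words with Serpinb2, 10.45% of those of Serpinb2.

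**Figure D4:**
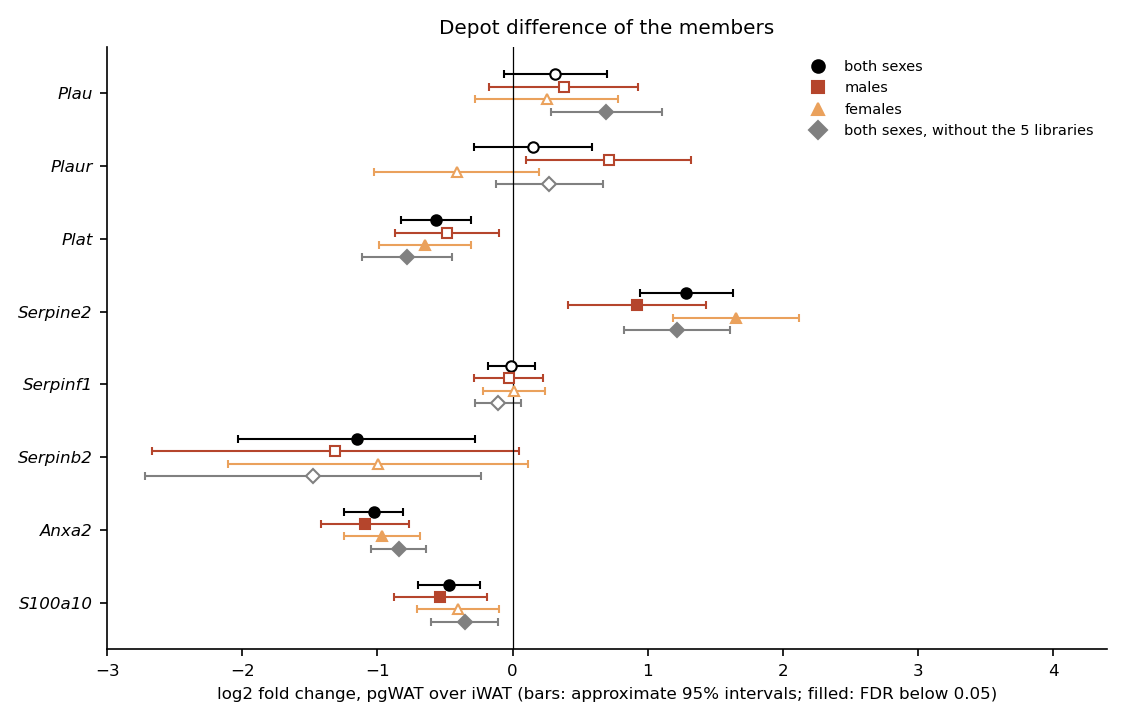
Log2 fold change of pgWAT over iWAT (horizontal axis) for the 8 members, over both labelled sexes, in each, and over both without the 5 pgWAT libraries; bars are approximate 95% intervals and filled symbols passed an FDR of 0.05. Serpine2 lies to the right in all 4 estimates and Anxa2 to the left, while Plaur has opposite signs in males and females.

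Within males 3 members were called (Serpine2, Anxa2 and S100a10), where 20.3% of all genes were, and within females 3 (Serpine2, Anxa2 and Plat), where 26.8% were. Without the 5 libraries 5 members were called over both sexes (23.7% of all genes), 2 in males (9.16% of all genes) and 6 in females (18.3% of all genes). No member was called for the depot by sex interaction (edgeR, DESeq2 and limma voom each called 0 of 8, and edgeR gave an unadjusted p under 0.05 for 1), where 0.181% of all genes were called. That member was Plaur, with a difference of 1.13 between the depots' sex effects on the log2 scale (SE 0.44, FDR 0.43), and the value for Serpine2 was -0.73 (SE 0.36, FDR 0.58). Without pgWAT male replicate 3 the interaction of Plaur was 0.52 (FDR 0.77). Without the 5 libraries the interaction of Plaur was 2.24 (FDR 0.00046), where 2.56% of all genes were called; this rests on 2 male and 3 female pgWAT libraries, the 2 male ones being those with most macrophage marker RNA.

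Between the sexes in iWAT 0 of 8 members were called by edgeR, DESeq2 or limma voom, where 3.22% of all genes were called by edgeR. In edgeR 4 members had an unadjusted p under 0.05. Male minus female, these were Serpine2 at 0.51 (SE 0.21, FDR 0.22), Anxa2 at 0.31 (SE 0.12, FDR 0.18), S100a10 at 0.31 (SE 0.13, FDR 0.22) and Plat at -0.31 (SE 0.15, FDR 0.30), all on the log2 scale. Anxa2 passed the threshold when the iWAT libraries were fitted alone (0.31, FDR 0.045), where 5.74% of all genes were called, and without the 5 pgWAT libraries (0.30, FDR 0.036), where 5.84% were.

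Between the labelled sexes in pgWAT 0 of 8 members were called by edgeR, DESeq2 or limma voom, where 0.0113% of all genes, that is 1 gene, were called by edgeR. Plaur alone had an unadjusted p under 0.05 (0.95 on the log2 scale, SE 0.36, FDR 0.45), and without pgWAT male replicate 3 its value was 0.35 (FDR 0.89). With the 5 libraries set aside, 3 members were called as higher in males: Plaur (2.06, FDR 0.00014), Anxa2 (0.63, FDR 0.021) and Serpinf1 (0.53, FDR 0.033). In that fit 5.63% of all tested genes were called, 3.17% as higher in males.

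Of the other genes of the pathway, plasminogen itself (Plg) had 0 counts in all 29 libraries, and Serpinf2, which codes for the plasmin inhibitor alpha 2-antiplasmin, had 4 counts in all.

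The list of plasminogen and other inhibitors held 11 genes, of which 4 were tested, with 2 called higher in pgWAT, 1 lower and 1 not called (median log2 fold change 1.25, against 0.01 over all genes). Serping1, which codes for C1 inhibitor, rose 7.37-fold (FDR 2.3e-13), from 121 ± 61.9 CPM in iWAT to 944 ± 314 CPM in pgWAT. Serpina3n, a secreted serpin, rose 4.97-fold (FDR 3.6e-13), from 20.5 ± 6.20 to 122 ± 65.8 CPM. For both, every pgWAT library lay above every iWAT library. Serpinb6a, an intracellular serpin, fell by 0.39 on the log2 scale (FDR 0.00057), and was not called without the 5 libraries (-0.21, FDR 0.12).

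Of 14 genes of receptors and clearance, 11 were tested, with 7 called higher and 1 lower (median 0.41). Itgb5, a subunit of a vitronectin receptor, rose 3.37-fold (FDR 1.8e-10), again with no overlap between depots (36.1 to 181 CPM in iWAT and 190 to 472 CPM in pgWAT). Itgam, a subunit of the leukocyte integrin Mac-1 and itself carried by macrophages, rose 2.93-fold (FDR 4.1e-05), and Mrc2, which codes for a collagen receptor that associates with the urokinase receptor, rose 1.60-fold (FDR 0.0004). Itgb3, another vitronectin receptor subunit, fell by 1.14 on the log2 scale (FDR 9.1e-06).

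Of 16 coagulation and fibrin genes, 8 were tested, with 3 called higher and 1 lower (median 0.26). F3, which codes for tissue factor, the trigger of coagulation, rose 3.41-fold (FDR 4.3e-08), Thbd, coding for thrombomodulin, rose 1.83-fold (FDR 1.2e-05), and Tfpi, coding for the tissue factor pathway inhibitor, rose 1.70-fold (FDR 3.8e-06). Of 7 substrates of plasmin or urokinase, 4 were tested. Thbs1 (thrombospondin 1) rose 2.27-fold (FDR 9.5e-06), and Ltbp1, a latent TGF-beta binding protein, fell by 1.01 on the log2 scale (FDR 7.4e-06).

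Relatives of Anxa2 and S100a10 went both ways. Of 15 annexin and S100 genes, 14 were tested, with 3 called higher, 5 lower and 6 not called (median -0.15). S100a4, found in fibroblasts and macrophages, fell by 1.24 on the log2 scale (FDR 2.2e-05), Anxa1 fell by 1.21 (FDR 2.0e-09) and Anxa5, a phosphatidylserine-binding annexin, fell by 0.68 (FDR 5.7e-07). S100a1 rose by 1.33 (FDR 3.9e-09), Anxa6 by 0.47 (FDR 0.0015) and S100a11 by 0.36 (FDR 0.0031). Over all 5 lists 25 of 41 tested genes were called, 16 higher and 9 lower, where 38.1% of all genes were called, 20.1% higher and 17.9% lower.

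Markers of other cell types and of dividing cells moved with the depot as well. Of the mesothelial markers 4 were tested and all 4 were called, 3 higher in pgWAT and 1 lower (median log2 fold change 5.42). Their sums were at most 98.7 CPM in iWAT and 59.0 to 189 CPM in pgWAT, with Msln, Upk3b, Lrrn4 and Upk1b at 0 in all iWAT male libraries and Lrrn4 at 0 in all iWAT female ones. Of the fibroblast markers 5 of 6 were called higher in pgWAT, as were 2 of 2 tested smooth muscle markers and 2 of 4 tested endothelial ones. The tested smooth muscle markers were Acta2 and Tagln, while Myh11 was low (means of 3.89 CPM in iWAT and 7.90 CPM in pgWAT). Proliferation markers were called lower in pgWAT for 6 of 8, with sums of 778 to 1207 CPM in iWAT and 432 to 866 CPM in pgWAT. Whether these markers came from other cell types, and the part of such cells in the depot differences of the members and lists, was not tested.

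**Figure D5:**
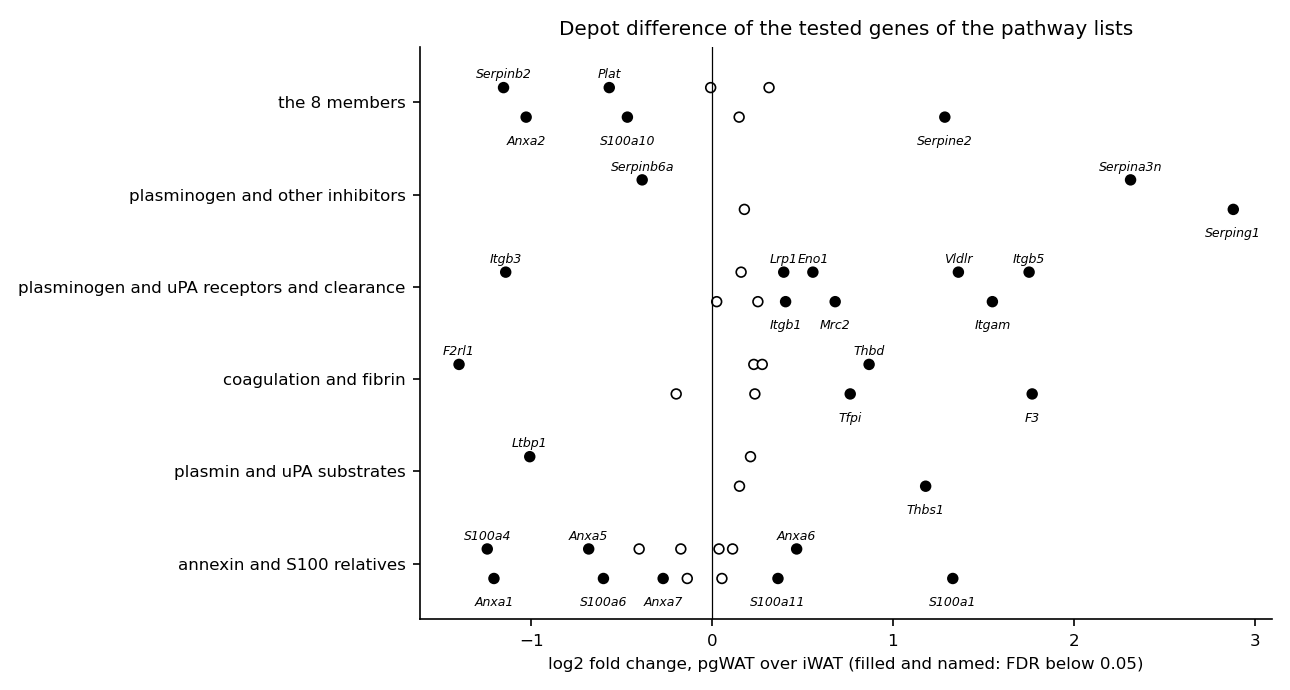
Log2 fold change of pgWAT over iWAT (horizontal axis) for each tested gene of the 8 members and of 5 wider lists (rows); filled, named points passed an FDR of 0.05. Of the inhibitors 2 of 4 tested genes lie to the right as called, and of the annexin and S100 relatives 5 of 14 lie to the left as called.

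Between the sexes in iWAT, 6 of the 41 genes were called, where 3.22% of all genes were. By direction 4 were higher in males (1.08% of all genes) and 2 lower (2.13%). S100a4 was higher in males by 1.15 on the log2 scale (FDR 0.0041) and S100a13 by 0.93 (FDR 0.0031). The value of Tfpi2, coding for a matrix-bound inhibitor of plasmin, was -0.84 (FDR 0.021), and without iWAT male replicate 6 it was -0.75 (FDR 0.051). Cell type markers differed between these groups too. Epithelial markers summed to 31.7 to 1409 CPM in iWAT female and 0 to 8.31 CPM in iWAT male libraries, where Epcam was at 0 throughout, and 2 of 2 tested were called lower in males (median log2 fold change -7.25). Smooth muscle markers summed to 819 to 3511 CPM in females and 573 to 816 CPM in males, with 2 of 2 tested called lower in males. Macrophage markers were called higher in males for 2 of 6 tested, and fibroblast markers lower for 2 of 6. Their part in the sex differences was not tested.

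The tested genes of at least 5 average log2 CPM that varied most like each member were found from deviations from the group means. All 29 libraries were used, which share depth and culture. Means were those of the labelled groups, so the deviations include the split between pgWAT libraries that matched their sex label and the others. The correlations are a description. For Anxa2 the nearest genes were Unc5b (Pearson's r 0.89), Plin2 (0.86) and Fam20c (0.85), and for S100a10 Psap (0.83), Sh3bgrl3 (0.83) and its relative S100a6 (0.83). Plat varied most like the matrix proteoglycan gene Bgn (0.90), then Tcn2 (0.87) and Fto (0.86). Serpine2 varied most like the basement membrane collagen gene Col4a2 (0.82), then Mdk (0.79) and Col4a1 (0.78). Plaur varied most like the chemokine gene Ccl7 (0.81), then Atp6v0c (0.80) and Atp5g1 (0.80). The nearest genes were Mgp (0.81) for Plau, Efemp2 (0.84) for Serpinf1 and Ddx19a (0.69) for Serpinb2, the last on few counts.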

How the data were processed

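RNA of 29 cultured SVF libraries was analysed from 1 table. The authors trimmed adapters with NGmerge and quantified reads with Salmon 1.9.0 against the Gencode vM32 transcriptome (GRCm39). They summed transcripts to genes, removed libraries with few detected genes and deposited expected counts, with UMI and other reads together and no normalization. RNA had been brought to 1 concentration before library preparation. Groups came from the labels. Replicate numbers follow the order of deposition and pair nothing.

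Counts were rounded to whole numbers and Ensembl IDs matched to symbols for 52029 of 56953 rows (unmatched rows held 0.439% of counts). The main test was edgeR 4.0.16 in R 4.3.3 (TMM, filterByExpr, 1 term per group over all 29 libraries, quasi-likelihood F test, two-sided, Benjamini-Hochberg FDR over 8853 genes, called under 0.05). CPM used TMM-scaled totals (total counts 315316 to 1102234). SEs came from the F statistic, and approximate 95% intervals from a normal factor. Ratios were log2 of counts plus 0.5, with two-sided permutation tests of the difference of depot means. Over 102 within-group pairs of libraries the lowest chi-square per degree of freedom was 1.50, so no library was treated as a duplicate. On simulated counts for the depot contrast the test was checked before use. DESeq2 1.42.0, limma 3.58.1, other scalings, no filter, the well column, leaving out each library, and leaving out the 5 pgWAT libraries were alternatives.

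The members, lists and markers were chosen with earlier results of these data known. All 8 members are named; of the wider lists, up to 3 genes per direction with the largest change among those called at 5 or more average log2 CPM (2 for the iWAT sex contrast), plus Plg and Serpinf2. Some genes were left out of the lists and are not reported here. Transcript lengths, shared sequence and promoters (RefSeq) came from GRCm38 references; 5 of 8 members had a promoter entry.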

Additional observations from a re-analysis of the deposited data

How the results depend on the processing

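No paired analysis was possible because the labels carry no replicate numbers, and the numbers used here only follow the order of deposition. In the depot contrast Serpine2, Anxa2, Plat and S100a10 kept their direction and their call under every alternative run, 29 fits without 1 library included. Members called differed by more than 1.5 times in females (3, against 6 without the 5 libraries, where 18.3% of all genes were called, and 5 in well column 8 only, where 16% were) and, against 0, without the 5 libraries (1 between sexes in iWAT, 3 between sexes in pgWAT, 1 for the interaction) and with iWAT libraries alone (1). Genes called without the 5 libraries were 872 in males (1801 in all libraries), 556 between sexes in iWAT (285), 536 between sexes in pgWAT (1) and 244 for the interaction (16). In well column 8 only, 1296 were called in females (2374). Between sexes in iWAT 509 were called with no filter and 496 with the well column as a factor. Between sexes in pgWAT these were 59 and 58, with 6 by limma voom and 16 by DESeq2, and the interaction gave 73 with no filter, 2 by limma voom and 36 by DESeq2. Without 1 library the counts were 1184 to 1905 in males, 0 to 9 between sexes in pgWAT and 3 to 31 for the interaction.

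Signs turned for log2 fold changes that were not called over all libraries, and of the turned values 1 was called, that of Serpinf1 in females without the 5 libraries (FDR 0.042). Plaur was -0.021 by limma voom over both sexes, -0.16 to 0.28 without 1 library, and -0.67 (FDR 0.081) in males in well column 9 only, where both pgWAT libraries carried Xist. Serpinf1 in males was 0.0393 with the well column as a factor and 0.12 without the 5 libraries. Serpinf1 in females was -0.039 on total counts, -0.0337 with no filter, -0.11 with the well column, -0.33 without the 5 libraries, -0.22 in well column 8 only and -0.0244 by limma voom. Without 1 library Serpinf1 ranged from -0.0596 to 0.0205 over both sexes, -0.109 to 0.0308 in males, -0.0907 to 0.0733 in females and -0.0305 to 0.15 between sexes in pgWAT, where Anxa2 ranged from -0.0164 to 0.34. The cause was not tested. The depth limits Serpinb2 most, with 0 to 24 counts per library.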
